A study of Mus musculus with 3 samples.

Results

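Gene expression at day 14 of doxycycline was compared with expression at day 6 in melan-a NRAS61K cells, across all genes and on 1 array per day. The difference is given throughout as the day 14 value minus the day 6 value on the log2 scale, so that a difference of 1 is 2-fold. A gene was described when the day 6 array, the day 14 array or both read its probe set above a background level, which held for 11762 of the 18195 genes with a probe set named to them alone. For that level, 110 probe sets of 68 genes chosen as silent in pigment cells were ranked and their 90th percentile taken, which lay at 22.76 on the day 6 array and 22.63 on the day 14 array. Of the genes described, 10917 lay above it on both arrays, 525 only at day 14 and 320 only at day 6. For a gene above the background on 1 array only, the fold is a lower bound, taken from that array's value against the background of the other. Values in brackets stand in order of time, for days 6, 14 and 28, and since the constant and the scale of the table are not stated, values of different genes are not compared.

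Melan-a is an immortalized line of mouse melanocytes, and per its name the derivative used here carries the NRAS61K oncogene. Doxycycline is the drug that switches on transgenes under a tetracycline-controlled promoter, although the labels do not describe the construct. Cells of both days, and those of the further array taken at day 28, received the drug at 1 µg/ml in DMEM with dialyzed serum, penicillin and streptomycin. The arrays thus differ, per the labels, in the days of treatment alone. No untreated array was used here, a day 10 culture that the treatment protocol names was not analysed here, and the series text counts 4 samples where 3 were analysed. The labels do not say whether the cultures were separate or passaged in between. With 1 array per day there is no spread between cultures, so no difference below has a p-value, an SD or an interval, and each describes 2 arrays. The title of the series asks how tumorigenic cells come from cells made senescent by this oncogene.

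Melanocytes make melanin in melanosomes, organelles related to the lysosome, under the control of the transcription factor MITF. An active RAS protein drives the kinases RAF, MEK and ERK, and in melanocytes a sustained RAS signal is known to end in senescence, a lasting arrest with a changed secretion. Cells that leave the cell cycle make less of the machinery of replication, mitosis and ribosome assembly.

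Checked against markers, the cells carried melanocyte RNA without the whole set. Of 10 melanocyte markers, 8 lay above the background on both days, while tyrosinase (Tyr, 21.94, 22.13 and 21.60 in order of time) and the receptor gene Kit (22.19, 21.96 and 21.72) were below it on every array. Schwann cell markers were above the background for 5 of 7 at day 6 and 6 of 7 at day 14. For the other types the counts on the 2 days were 5 and 4 of 10 for fibroblasts, 4 and 4 of 10 for macrophages and leukocytes, 4 and 4 of 9 for keratinocytes, 2 and 2 of 10 for endothelium, 4 and 4 of 10 for neurons, 2 and 2 of 10 for muscle and 1 and 1 of 6 for adipocytes. Dcn, Lum and Thy1 of fibroblasts, Ptprc, Itgam and C1qa of leukocytes, Krt14 and Trp63 of keratinocytes and Pecam1 and Kdr of endothelium were at background on both days. Members above it on both days included Col3a1 and Ogn of fibroblasts, Cd68, Csf1r, Adgre1 and Lyz2 of leukocytes and Cdh5 and Egfl7 of endothelium. The log2 of the summed values went from 26.74 to 28.25 for the fibroblast list, from 26.67 to 27.65 for the macrophage and leukocyte list, from 25.96 to 26.70 for endothelium, from 28.42 to 29.65 for Schwann cells and from 29.32 to 31.37 for the melanocyte list. It went down from 26.06 to 25.91 for keratinocytes, from 27.78 to 27.52 for neurons, from 26.11 to 25.72 for muscle and from 24.52 to 24.22 for adipocytes. The part of other cells in any difference below was not tested.

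The 3 arrays held the same values once sorted, so a change shared by most genes was removed before deposit and every difference is relative to the other genes. Hybridization control probe sets averaged 27.45 at day 6 and 27.53 at day 14, and poly-A control probe sets 23.86 and 24.07. The 3′ minus 5′ log2 difference, a sign of RNA integrity, was 0.58 and 0.76 for Actb, -0.24 and -0.10 for Gapdh and 2.0 and 1.13 for Tfrc on the same days. Of 13 common reference genes, 0 were 2-fold apart, and their median difference was -0.25. The part of RNA integrity in the differences was not tested.

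At day 14, 644 genes were at least 2-fold higher than at day 6 (5.48% of those described) and 461 at least 2-fold lower (3.92%). These counts use the values as deposited, also those below the background, and 166 of the genes higher and 96 of the genes lower passed the background on 1 array only. With values below the background raised to it, 549 genes were higher and 389 lower. The median difference of all genes described was -0.03 and its SD across genes was 0.65. The large differences were mostly upward. At 4-fold or more 127 genes were higher and 20 lower, and at 8-fold or more 34 were higher and 3 lower. Among the 10917 genes that both arrays read above the background, the same counts were 64 against 11 and 14 against 2. At 1.5-fold the order was turned, with 1581 higher and 1683 lower. With each array shifted so that the hybridization controls agreed, which moved the median of all genes to -0.12, 554 genes were 2-fold higher and 626 lower, so the balance of the 2 directions rests on the scaling.

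**Figure D1:**
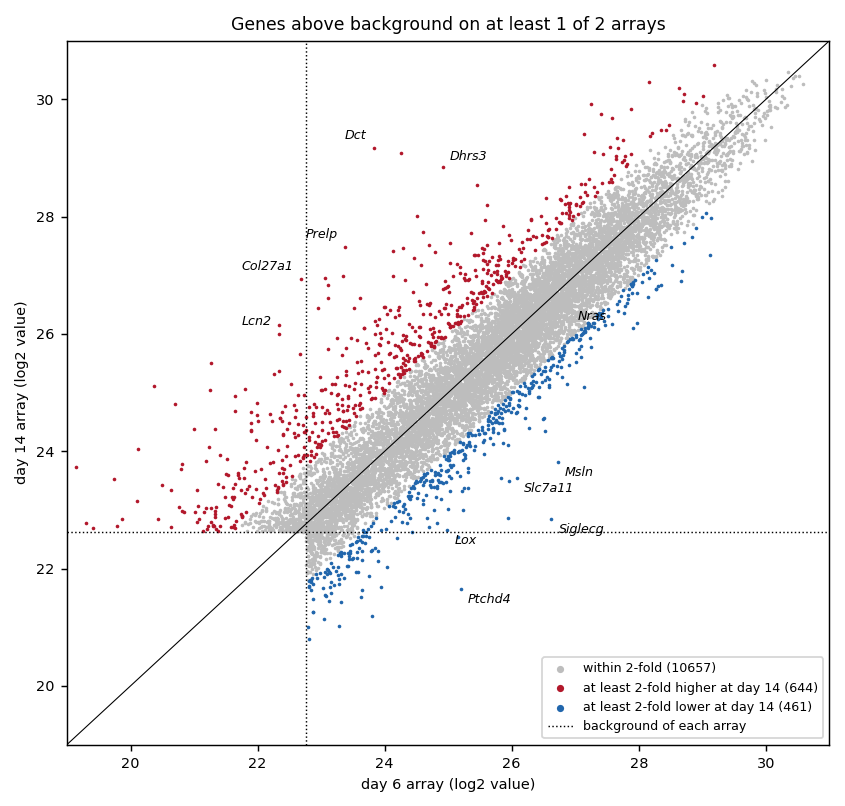
Log2 value at day 6 (x axis) and at day 14 (y axis) of the 11762 genes above background on at least 1 of the 2 arrays, 1 point per gene; dotted lines mark the background of each array and the solid line equal values. The 644 red genes lie farther from the line, up to Dct at 5.34, than the 461 blue ones, whose lowest is Siglecg at -3.78.

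How far probe sets of the same gene disagreed was the only measure of error at hand. Over 5453 genes with at least 2 probe sets above the background, the SD of their differences about the gene's mean was 0.35. Of the 644 genes higher, 280 had another such probe set, and in 260 of them every other probe set was also higher, in 146 by at least 2-fold. Of the 461 lower, 178 had another, and all others were lower in 168 and at least 2-fold lower in 93. In neither direction did another probe set differ by 2-fold the opposite way. For the lysyl oxidase gene Lox the probe sets disagreed, with a difference of -2.32 on the probe set used and 0.11 on another. Among 3901 probe sets above the background that carried no gene name or several, 6.38% were 2-fold higher and 2.85% lower.

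**Figure D2:**
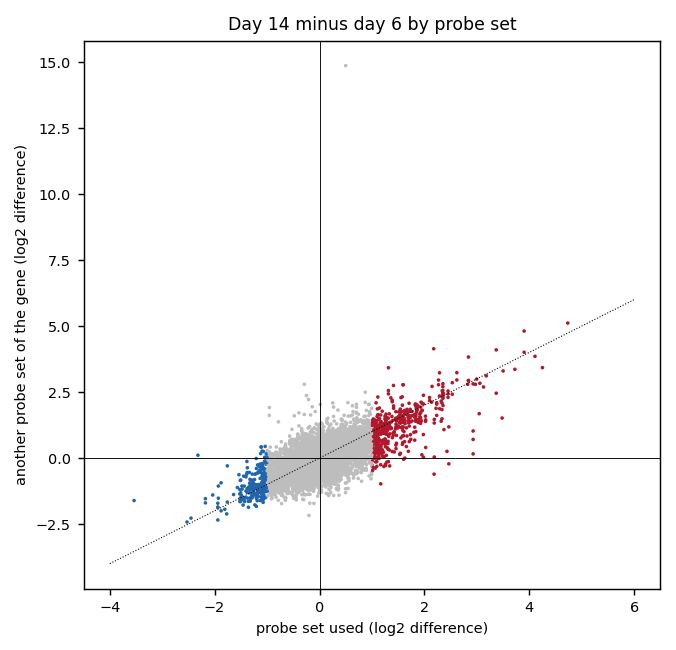
Day 14 minus day 6 log2 difference of the probe set used for a gene (x axis) against that of every other probe set of the gene above background (y axis); red and blue points are genes 2-fold higher and 2-fold lower, and the dotted line marks equality. A lone point near 15 is a probe set of Atp1b2 that read 8.76 on day 6. Most coloured points keep their side of 0, and many lie nearer to 0 than the probe set used, as for Lox at -2.32 and 0.11.

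Pigment genes led the upward side. Dct, the dopachrome tautomerase of melanin synthesis, read 23.83 on day 6, 29.17 on day 14 and 28.03 on day 28, and was 40.6-fold higher at day 14. The melanosome protein gene Mlana read 24.25 on day 6, 29.08 on day 14 and 28.38 on day 28, which was 28.4-fold higher. Slc45a2, a transporter of the melanosome membrane, had 23.11 on day 6, 26.84 on day 14 and 25.77 on day 28, 13.2-fold higher at day 14. All 3 were highest on the day 14 array. Mitf itself, the factor that switches these genes on, read 23.67 on day 6, 26.10 on day 14 and 25.80 on day 28 and was 5.40-fold higher. Tyrp1, a further melanin enzyme, was 4.28-fold higher (27.58, 29.67 and 27.47 on days 6, 14 and 28), and the melanosome receptor gene Gpr143 was 3.31-fold higher. Of 20 pigment entries 13 were described and 11 were above the background on both arrays. In the latter 6 were 2-fold higher, 0 lower and all 11 above 0, with a median of 1.31 against -0.05 for all genes above the background on both arrays.

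The whole melanosome did not share this. Pmel, the gene of the melanosome's fibrils, was close to the background and differed by 0.31, Gpnmb by 0.53 and the melanocortin receptor gene Mc1r by 0.82. Ednrb, the endothelin receptor of pigment cells, went the other way, above the background at day 6 only (23.28, 21.83 and 22.50) and at least 1.57-fold lower at day 14. For transport, 3 of 11 Rab proteins and motors were 2-fold higher. Mlph, which ties melanosomes to myosin, was 3.84-fold higher and the small GTPase gene Rab38 3.54-fold higher. The 20 genes of the AP-3 and BLOC complexes, which sort cargo to melanosomes, had 0 higher, 0 lower and a median of 0.02. With 5.48% of all genes described higher and 3.92% lower, 0 of 20 says nothing particular about them. Among lineage factors Sox10 differed by 0.72, Pax3 by 0.06 and Sox6 by 1.07, with -0.15 to 1.08 (log2) on 3 others for Sox6. Of these factors Mitf had the largest difference, at 2.43.

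The promoters of Dct and Tyrp1 are shown because they hold the letters of the M-box, the element through which MITF is known to bind pigment genes. Each runs from 250 bases before the transcription start to 50 after it, 5′ to 3′ in the direction of the gene, from the RefSeq promoter table of build GRCm38.p6, with TCATGTG of either strand in capitals. Dct lies at chr14:118052197-118052496 on the minus strand and Tyrp1 at chr4:80833963-80834262 on the plus strand.
Dct: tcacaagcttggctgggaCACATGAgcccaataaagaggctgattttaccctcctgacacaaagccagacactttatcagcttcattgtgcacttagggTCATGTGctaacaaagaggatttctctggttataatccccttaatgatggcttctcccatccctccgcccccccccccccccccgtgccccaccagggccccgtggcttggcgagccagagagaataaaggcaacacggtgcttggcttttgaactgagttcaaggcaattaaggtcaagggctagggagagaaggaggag
Tyrp1: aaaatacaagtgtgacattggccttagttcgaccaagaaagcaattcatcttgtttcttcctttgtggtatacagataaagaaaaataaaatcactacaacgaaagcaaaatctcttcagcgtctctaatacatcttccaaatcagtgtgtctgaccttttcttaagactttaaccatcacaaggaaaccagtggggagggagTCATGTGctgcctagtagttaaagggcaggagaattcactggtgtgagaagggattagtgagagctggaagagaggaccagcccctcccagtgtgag
The letters TCATGTG were in 5 of 17 promoters of pigment list genes (29.4%) and in 3.77% of all promoters of the table. The shorter CATGTG, which the M-box contains, was in 41.2% and 14.2%. Tyr, which was at background, carries the M-box letters too. So do Slc7a11 and Asns, which were at least 2-fold lower at day 14. Melanosome transport genes had the M-box letters in 1 of 31 promoters (3.23%). No promoter of Mlana or Slc45a2 was at hand. The 17 promoters belong to 13 genes, some with several starts.

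**Figure D3:**
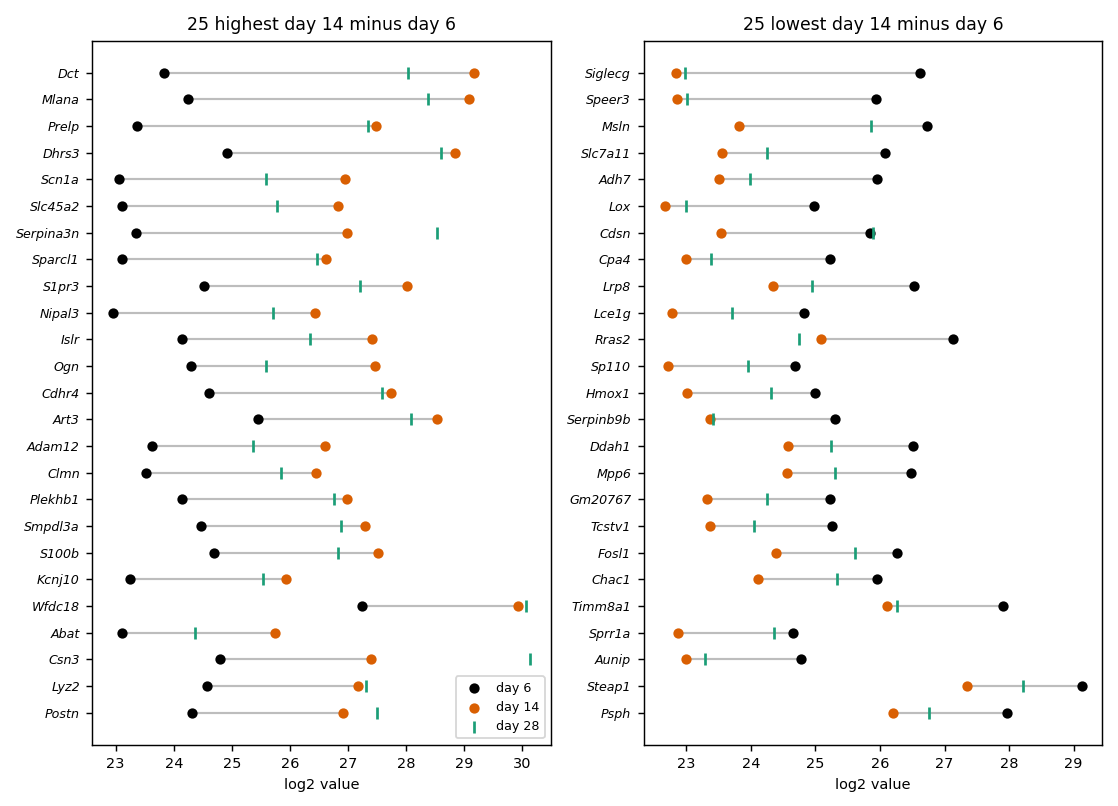
Log2 values at day 6 (black), day 14 (orange) and day 28 (green bars) of the 25 genes highest and the 25 lowest at day 14 against day 6 among those above background on both arrays. In the left panel, Dct leads with 23.83 and 29.17; in the right panel, Siglecg leads with 26.62 and 22.85, and several day 28 bars, as for Msln and Cdsn, lie back toward the black points.

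Beside pigment genes, the top of the list held secreted and matrix genes. Prelp, a leucine-rich proteoglycan of basement membranes, read 23.37 on day 6, 27.48 on day 14 and 27.35 on day 28 and was 17.3-fold higher. Ogn, of the same family, was 9.06-fold higher (24.29, 27.47 and 25.59). Of 17 entries of this family only 4 were described, the other 2 being Fmod at 0.65 and Podn at -0.05. Sparcl1, a matricellular protein gene, was 11.5-fold higher and periostin (Postn) 6.04-fold higher. The protease inhibitor gene Serpina3n read 23.35 on day 6, 26.98 on day 14 and 28.54 on day 28 and Csn3, the gene of the milk protein kappa-casein, 24.79 on day 6, 27.41 on day 14 and 30.14 on day 28. These last 2 were 12.4-fold higher and 6.12-fold higher at day 14 and higher again on the day 28 array, as was the iron-binding lipocalin gene Lcn2, which was below the background at day 6 (22.34, 26.00 and 28.35) and at least 9.45-fold higher. S1pr3, a sphingosine-1-phosphate receptor gene, was 11.3-fold higher, and Adam12, a metalloprotease gene, 7.98-fold higher. Dhrs3, which reduces retinal to retinol, was 15.3-fold higher, while Adh7, which oxidizes retinol, was 5.47-fold lower.

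Collagen genes were described in 27 of 42 cases, 15 of them above the background on both arrays. Of those 15, 4 were 2-fold higher and 0 lower, with a median of 0.33. The median over all 27 described was 0.80. It includes chains that passed the background only on the array where they were high, so it adds no support. The 4 were Col3a1 of fibrils (2.08-fold higher) and the cartilage-type or fibril-associated chains Col2a1 (2.96-fold higher), Col16a1 (3.11-fold higher) and Col9a1 (4.06-fold higher). Further chains crossed the background, led by Col27a1, which read 22.68, 26.93 and 25.53 on days 6, 14 and 28 and was at least 18.0-fold higher, and Col11a1, which was at least 4.57-fold higher. Cnmd, the gene of the cartilage protein chondromodulin, crossed it too and was at least 10.4-fold higher. Col7a1, of the anchoring fibrils, was lowest at -0.97. Of 17 matricellular genes above the background on both arrays 4 were 2-fold higher, among them Ccn2 at 1.78. Lox and the protease inhibitor gene Timp1 lay on the other side, at -2.32 and -1.30, the former with the disagreement between probe sets given above. Mmp2 and Mmp3, genes of secreted matrix proteases, were 2.95-fold higher and 2.76-fold higher, and the inhibitor genes Timp2 and Reck 2.05-fold higher and 4.58-fold higher. The fibroblast marker list, which holds Col3a1 and Ogn, had a summed level of 26.74 on day 6 and 28.25 on day 14 with Dcn, Lum, Thy1, Dpt and Fbln1 at background, and its part in these differences was not tested.

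Guidance genes were higher in part. Semaphorins steer axons and migrating cells through plexin and neuropilin receptors. Of 31 such entries 27 were described, 10 of them at least 2-fold higher and 0 lower. The 25 above the background on both arrays had a median of 0.75, and 19 of them were above 0. Among ligands, Sema6a was 5.52-fold higher on the probe set used but -0.22 and 1.18 (log2) on 2 dimmer ones, Sema3b was 3.01-fold higher (26.91, 28.50 and 28.33 by day) and Sema4f 2.62-fold higher. Among receptors, Plxnb3 was 4.40-fold higher (24.16, 26.30 and 26.18), Plxnc1 3.03-fold higher (24.32, 25.91 and 25.69) and Plxnd1 2.71-fold higher. Of 12 ephrins and their receptors above the background on both arrays 3 were 2-fold higher, the ligand genes Efnb1 (2.84-fold higher) and Efna1 (2.15-fold higher) and the receptor gene Epha7 (2.01-fold higher). Slits, netrins and their receptors had 0 of 10 past 2-fold, with Ntn1 at 0.97 and Robo1 at 0.94. With 5.48% of all genes described 2-fold higher, 0 of 10 says nothing particular about them.

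Glial genes were higher in part. Of 24 entries 18 were described, and of the 15 above the background on both arrays 6 were 2-fold higher and 0 lower, with a median of 0.93. S100b, a calcium-binding protein gene of Schwann cells and melanocytes, read 24.70 on day 6, 27.52 on day 14 and 26.83 on day 28, 7.09-fold higher at day 14. The glial cadherin gene Cdh19 was 5.98-fold higher, the gap junction gene Gjc3 3.76-fold higher and the neuregulin receptor gene Erbb3 3.22-fold higher. The Schwann cell marker list, which holds S100b and Cdh19, had the summed levels given above, with Gfap at background on both days, and the part of such cells in these differences was not tested. Lgi4, secreted by Schwann cells, was below the background at day 6 and at least 6.08-fold higher. Ncam1 was 2.91-fold higher on the probe set used and 0.18 to 1.49 (log2) on 5 others. The neural crest and stem cell list had 1 of 14 genes 2-fold higher and a median of -0.06 over the 13 above the background on both arrays, or 0.12 over all 14. The member past 2-fold, the retinal dehydrogenase gene Aldh1a1, crossed the background and was at least 2.49-fold higher. With 5.48% of all genes described 2-fold higher, 1 of 14 says nothing particular about that list.

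Adhesion genes and receptors of cell contact were higher in part. Of 13 cadherins above the background on both arrays 3 were 2-fold higher, Cdh19, Celsr2 (1.80) and Cdh5, the cadherin known from endothelium (4.45-fold higher). E-cadherin, Cdh1, crossed the background (21.89, 24.36 and 22.70) and was at least 3.02-fold higher. Among Notch receptors and ligands 3 of 9 were 2-fold higher, Notch1 at 1.01, Notch3 at 1.30 and the ligand gene Dll1 at 1.06. The target gene Hes1 differed by 0.19, and 0 of 12 modifiers and targets were 2-fold apart. In the Wnt pathway 5 of 21 ligands and receptors were 2-fold higher and 0 lower, among them Lgr4 (1.29) and Lrp5 (1.26), while the target gene Axin2 differed by 0.02. With 5.48% of all genes described 2-fold higher, 0 of so few targets says nothing particular about them. The sodium channel gene Scn1a read 23.05 on day 6, 26.96 on day 14 and 25.59 on day 28, 14.9-fold higher, and the potassium channel gene Kcnj10 of glia was 6.40-fold higher. Itgb3, an integrin subunit gene, was 3.79-fold higher.

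The introduced oncogene belongs to the RAS family, so the RAS genes are given by member. Nras read 26.92 on day 6, 26.48 on day 14 and 26.70 on day 28, a difference of -0.44, and its 2 other probe sets gave -0.79 and -1.12. The sources used here do not say how far these probe sets also report the introduced oncogene. Rras2, a close relative, read 27.13 on day 6, 25.09 on day 14 and 24.75 on day 28 and was 4.10-fold lower, with -1.40 (log2) on its other probe set. Of 10 RAS family genes 9 were below 0. The 7 kinases of the cascade above the background on both arrays ran from -0.66 to 0.43, with 0 past 2-fold. With 5.48% of all genes described higher and 3.92% lower, 0 of 7 says nothing particular about them.

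Genes that answer to ERK differed in both directions. Spry1, an inhibitor of receptor signalling, was 4.43-fold higher (23.84, 25.99 and 26.15), while Spry2 and Spry4 differed by 0.29 and 0.54. Among phosphatases that switch off the kinases Dusp1 was 2.30-fold higher, Dusp6 differed by 0.29, and Dusp10 and Dusp14 were 2.70-fold lower and 2.50-fold lower. The AP-1 subunit genes Fosl1 and Fos went opposite ways. Fosl1 read 26.27 on day 6, 24.39 on day 14 and 25.62 on day 28 and was 3.67-fold lower, while Fos read 25.54 on day 6, 26.87 on day 14 and 26.23 on day 28 and was 2.52-fold higher. Of 11 AP-1 subunits described the rest lay between -0.60 (Batf3) and 0.51 (Jun). Prkca, a protein kinase C gene, was 3.87-fold higher on the probe set used and differed by 0.12 on another.

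**Figure D4:**
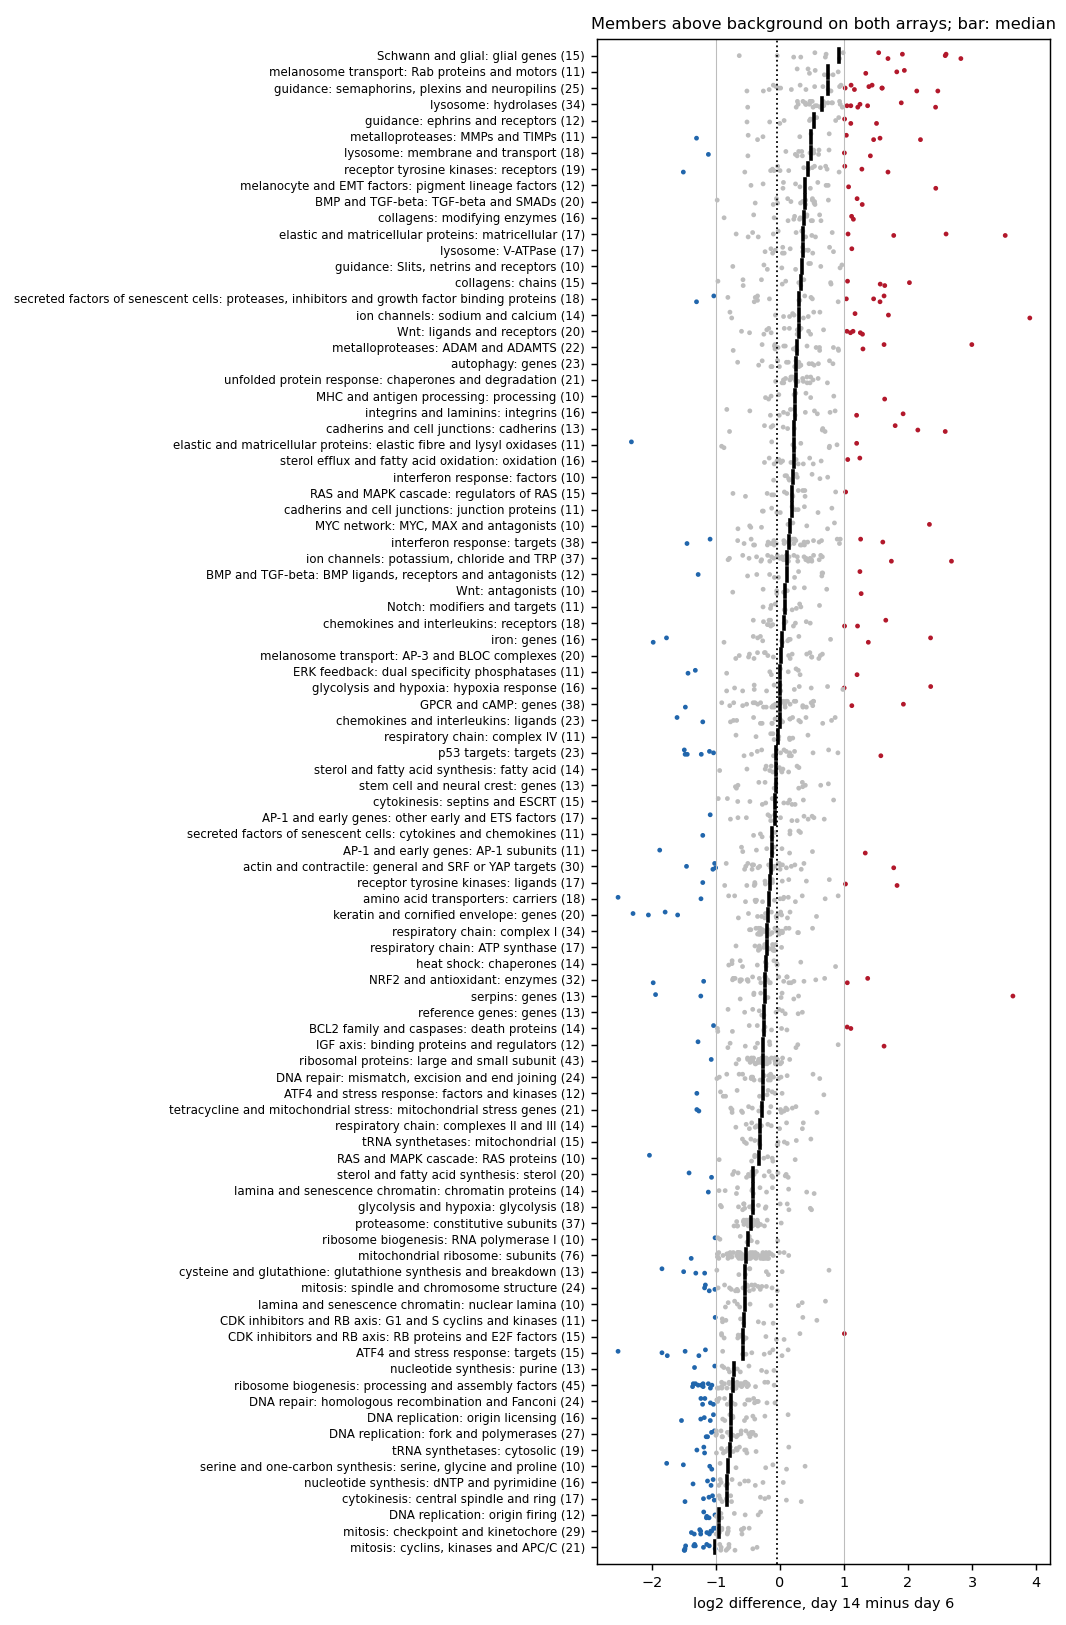
Day 14 minus day 6 log2 difference of every member above background on both arrays (points, red 2-fold higher, blue 2-fold lower) for each role of a gene list with at least 10 such members, sorted by the median (black bar); the number of members stands after each name and the dotted line is the median of all genes above background on both arrays. Mitotic and replication roles lie at the lower end, down to a median of -1.01, and the semaphorin and glial roles near the upper end, at 0.75 and 0.93.

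Genes of DNA replication were at least 2-fold lower in part, and most of the others lay below 0 within 2-fold. Of 55 members, all above the background on both arrays, 14 were 2-fold lower, 0 higher and 54 below 0. The median was -0.76 for origin licensing, -0.96 for origin firing and -0.77 for the fork and its polymerases. Orc1, of the complex that marks origins, read 24.40 on day 6, 22.86 on day 14 and 21.97 on day 28 and was 2.90-fold lower, although another probe set gave -0.63 (log2). The licensing factor gene Cdc6 was 2.27-fold lower and Mcm5, a subunit of the helicase, 2.05-fold lower. Gins1, of the complex that turns the helicase on, read 26.38 on day 6, 25.19 on day 14 and 24.97 on day 28 and was 2.28-fold lower. Nucleotide synthesis had 6 of 29 genes 2-fold lower and a median of -0.79. Rrm2, a subunit of ribonucleotide reductase, was 2.56-fold lower (28.52, 27.17 and 26.77), the thymidine kinase gene Tk1 2.11-fold lower and Prps1, which makes the sugar phosphate for all nucleotides, 2.52-fold lower.

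Of the lists described here, mitosis had the most members past 2-fold by count, and it is a large list. By share it did not lead, as 6 of 11 pigment genes above the background on both arrays were 2-fold higher. All 74 members described were below 0, 26 of them by 2-fold, with medians of -1.01 for cyclins, kinases and the anaphase-promoting complex, -0.96 for the checkpoint and kinetochore and -0.54 for the spindle and chromosome structure. The kinase gene Aurka read 27.01 on day 6, 25.51 on day 14 and 25.40 on day 28 and was 2.82-fold lower. Plk1, a further mitotic kinase gene, read 27.09 on day 6, 25.60 on day 14 and 25.28 on day 28, 2.79-fold lower. Mybl2 and Foxm1, factors that drive mitotic genes, were 2.80-fold lower and 2.50-fold lower. All 4 had day 28 values below those of day 14, by less than the SD between probe sets for Aurka, Plk1 and Foxm1. For Mybl2 the values were 25.04, 23.55 and 23.14, and for Foxm1 25.80, 24.48 and 24.30. Mki67, the gene of the proliferation marker Ki-67, differed by -0.31.

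Within cytokinesis the roles parted. The central spindle and contractile ring had 5 of 17 lower and a median of -0.83, a list that shares Plk1 and Aurkb with mitosis. Anln, an anchor of the ring, differed by -0.90, Ect2, which activates it, by -0.83 and the midzone motor gene Kif23 by -0.83. Septins and the ESCRT proteins of the last cut had 0 of 16 past 2-fold and a median of -0.07. In DNA repair, homologous recombination and the Fanconi pathway had a median of -0.76 with 6 of 25 lower, led by Fancd2 (2.35-fold lower). Mismatch, excision and end-joining repair had a median of -0.26 with 0 of 24 lower. With 3.92% of all genes described 2-fold lower, 0 of 16 and 0 of 24 say nothing particular about those roles.

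Promoters of these lists held the letters of known cell cycle elements. Plk1 and Aurka are shown with the CHR (TTTGAA) in capitals and Orc1 with an E2F site (TTTCGCGC), on either strand, from the same table and window. Plk1 lies at chr7:122159185-122159484 on the plus strand, Aurka at chr2:172370521-172370820 on the minus strand and Orc1 at chr4:108579204-108579503 on the plus strand.
Plk1: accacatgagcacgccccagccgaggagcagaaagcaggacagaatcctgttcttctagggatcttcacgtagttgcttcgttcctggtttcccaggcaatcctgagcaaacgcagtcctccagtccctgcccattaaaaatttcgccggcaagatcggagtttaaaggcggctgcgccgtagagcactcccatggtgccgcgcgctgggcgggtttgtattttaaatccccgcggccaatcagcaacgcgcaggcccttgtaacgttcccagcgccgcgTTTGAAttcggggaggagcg
Aurka: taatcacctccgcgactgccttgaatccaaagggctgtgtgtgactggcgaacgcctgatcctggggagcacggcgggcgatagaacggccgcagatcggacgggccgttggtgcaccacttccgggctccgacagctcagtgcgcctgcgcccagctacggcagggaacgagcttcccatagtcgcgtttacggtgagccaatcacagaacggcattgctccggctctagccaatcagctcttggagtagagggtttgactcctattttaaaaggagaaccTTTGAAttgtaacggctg
Orc1: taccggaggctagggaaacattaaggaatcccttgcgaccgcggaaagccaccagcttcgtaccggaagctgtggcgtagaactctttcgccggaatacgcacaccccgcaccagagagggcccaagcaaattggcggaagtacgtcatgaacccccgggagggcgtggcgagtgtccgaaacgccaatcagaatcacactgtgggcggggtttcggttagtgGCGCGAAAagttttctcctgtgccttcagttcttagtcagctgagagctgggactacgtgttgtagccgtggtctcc
TTTGAA was in 37 of 66 promoters of mitosis genes (56.1%), in 15.8% of those of replication genes and in 17.9% of all. CCAAT, bound by NF-Y, was in 72.7%, 52.6% and 37.4%. The E2F letters ran the other way. TTTCGCGC was in 17.5% of replication promoters, 1.52% of mitosis promoters and 0.323% of all, and TTTGGCGC in 14%, 4.55% and 0.514%.

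The CDK inhibitor genes described were 2-fold lower or within 2-fold. Cdkn2a, whose products p16 and p19ARF hold the RB and p53 pathways, read 25.32 on day 6, 24.25 on day 14 and 25.86 on day 28 and was 2.09-fold lower. Cdkn1a, which encodes p21, differed by -0.56, Cdkn2b by -0.13 and Cdkn1b by 0.19. Rb1 differed by 0.06, and its relative Rbl2 was 2.01-fold higher. Among p53 target genes 6 of 24 were 2-fold lower and 1 higher, beside 3.92% and 5.48% of all genes described. The lower ones were Gtse1 (-1.49), Sesn2 (-1.48), Aen (-1.45), Plk3 (-1.23), Gadd45a (-1.10) and the death gene Bbc3 (-1.04), of which Gtse1 is also a mitotic gene and Sesn2 also an ATF4 target. Bcl2l11 and Bmf, death genes of the same family as Bbc3, were 2.15-fold higher and 2.07-fold higher, the former with 0.20 to 1.14 (log2) on 4 others. Lmnb1, a lamina gene that is low in senescent cells, differed by -0.47, and Glb1, the gene of the senescence-linked beta-galactosidase, by 0.81.

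Of the genes for making proteins, some factors of ribosome assembly were 2-fold lower. Ribosome processing and assembly factors had 45 of 45 below 0, 10 by 2-fold, and a median of -0.74. Nop16 was 2.57-fold lower and Dkc1, the pseudouridine synthase gene, 2.42-fold lower. Srm, the spermidine synthase gene, was 2.68-fold lower (27.59, 26.16 and 25.76). The ribosomal proteins themselves had 1 of 43 genes 2-fold lower and a median of -0.26, beside -0.25 for the reference genes. In mitochondria the 76 ribosomal subunits had 74 below 0, 1 of them by 2-fold, and a median of -0.54, while the respiratory chain had -0.18 over 76 genes with 0 past 2-fold. For the proteasome 36 of 37 subunits were below 0 and 0 by 2-fold, with a median of -0.45 and a lowest value of -0.72. Of all genes described 3.92% were 2-fold lower and 5.48% higher, so 1 of 43 says nothing particular about the ribosomal proteins. The counts for mitochondria and the proteasome stand beside the same shares. Myc differed by -0.66 (26.87, 26.22 and 26.38), and Mxd4, of the family that competes with MYC for its partner MAX, was 5.04-fold higher (23.92, 26.25 and 26.21).

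Several genes of the amino acid response were 2-fold lower. ATF4 is a factor whose translation increases when amino acids are short or proteins misfold, and it switches on amino acid synthesis, uptake and tRNA charging. Atf4 differed by -0.85 and its relative Atf5 was 2.46-fold lower. Of 15 ATF4 targets described 6 were 2-fold lower, 0 higher and 13 below 0, with a median of -0.58. Slc7a11, which brings in cystine, read 26.08 on day 6, 23.55 on day 14 and 24.25 on day 28 and was 5.76-fold lower. Chac1, which breaks down glutathione, read 25.95 on day 6, 24.11 on day 14 and 25.33 on day 28, 3.58-fold lower. The pseudokinase gene Trib3 was 2.40-fold lower (27.97, 26.71 and 27.64) and the asparagine synthetase gene Asns 2.24-fold lower (29.14, 27.98 and 28.45). For Chac1 and Trib3 the day 28 value lay nearer to day 6 than to day 14. Eif4ebp1, a brake of translation, was 3.38-fold lower on the probe set used, and -1.67 to -0.30 (log2) on 2 others.

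Serine synthesis was lower in part. Phgdh, the enzyme that starts it, differed by 0.10, while Psat1 was 2.14-fold lower and Psph 3.41-fold lower. Shmt2 and Mthfd2, which pass carbon from serine to folate in mitochondria, were 2.84-fold lower (28.27, 26.76 and 27.11) and 2.86-fold lower (28.35, 26.83 and 27.25). Cytosolic tRNA synthetases had 18 of 19 below 0, 3 by 2-fold, and a median of -0.78, with Cars, Wars and Gars, which charge cysteine, tryptophan and glycine tRNA, at -1.30, -1.19 and -1.18. Mitochondrial ones had a median of -0.31 over the 15 above the background on both arrays.

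Slc7a11, Chac1 and Asns are shown with TGATGNAA, the element bound by ATF4 with a C/EBP partner, in capitals on either strand, again from RefSeq build GRCm38.p6 with 250 bases before and 50 after the start. Slc7a11 lies at chr3:50443564-50443863 on the minus strand, Chac1 at chr2:119350992-119351291 on the plus strand and Asns at chr6:7693160-7693459 on the minus strand.
Slc7a11: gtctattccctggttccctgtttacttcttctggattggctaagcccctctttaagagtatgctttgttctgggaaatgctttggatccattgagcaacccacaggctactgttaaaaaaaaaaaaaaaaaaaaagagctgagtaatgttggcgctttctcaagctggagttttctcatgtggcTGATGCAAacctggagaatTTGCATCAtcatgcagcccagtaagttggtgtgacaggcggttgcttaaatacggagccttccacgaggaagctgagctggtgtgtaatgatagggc
Chac1: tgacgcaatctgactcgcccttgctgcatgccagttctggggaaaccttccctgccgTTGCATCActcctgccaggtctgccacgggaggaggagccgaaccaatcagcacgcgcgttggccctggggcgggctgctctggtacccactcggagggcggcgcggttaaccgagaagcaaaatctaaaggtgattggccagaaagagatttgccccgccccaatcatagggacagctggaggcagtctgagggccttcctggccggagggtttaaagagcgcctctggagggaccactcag
Asns: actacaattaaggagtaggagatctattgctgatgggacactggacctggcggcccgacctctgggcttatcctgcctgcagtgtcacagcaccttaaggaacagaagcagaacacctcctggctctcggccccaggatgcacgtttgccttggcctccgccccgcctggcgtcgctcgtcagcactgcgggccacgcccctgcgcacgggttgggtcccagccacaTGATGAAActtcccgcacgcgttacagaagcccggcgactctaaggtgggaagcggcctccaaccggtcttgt
Slc7a11 holds the letters at 2 places, 1 on each strand. They were in 9 of 30 promoters of the ATF4 list (30%), in 5 of 12 of cytosolic tRNA synthetases (41.7%), in 1 of 19 of the serine and folate list and in 3.97% of all promoters.

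Of the genes of cystine uptake and transsulfuration 1 of 7 described was 2-fold lower, Slc7a11, and of those of glutathione synthesis and breakdown 4 of 13, with medians of -0.54 and -0.54. Among genes of cysteine oxidation and sulfide 1 of 8 was 2-fold higher and 1 lower. Gclm, a subunit of the enzyme that starts glutathione synthesis, was 2.83-fold lower (28.28, 26.77 and 26.67), Chac2 2.49-fold lower and the glutathione reductase gene Gsr 2.26-fold lower. Csad, which makes taurine's precursor, was 2.36-fold higher, and Ethe1, which oxidizes sulfide products, 2.42-fold lower. Cth and Cbs, the transsulfuration enzymes, were at background on every array (20.57, 19.24 and 20.47 and 22.73, 22.31 and 22.53). Hmox1, the heme oxygenase gene that NRF2 and other stress factors switch on, read 24.99 on day 6, 23.01 on day 14 and 24.32 on day 28 and was 3.94-fold lower. Over the 33 antioxidant enzymes described 2 were 2-fold lower and 3 higher, beside 3.92% and 5.48% of all genes described. Nfe2l2, which encodes NRF2, differed by 0.03. These enzymes had 21 of 32 members above the background on both arrays below 0 and a median of -0.23.

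**Figure D5:**
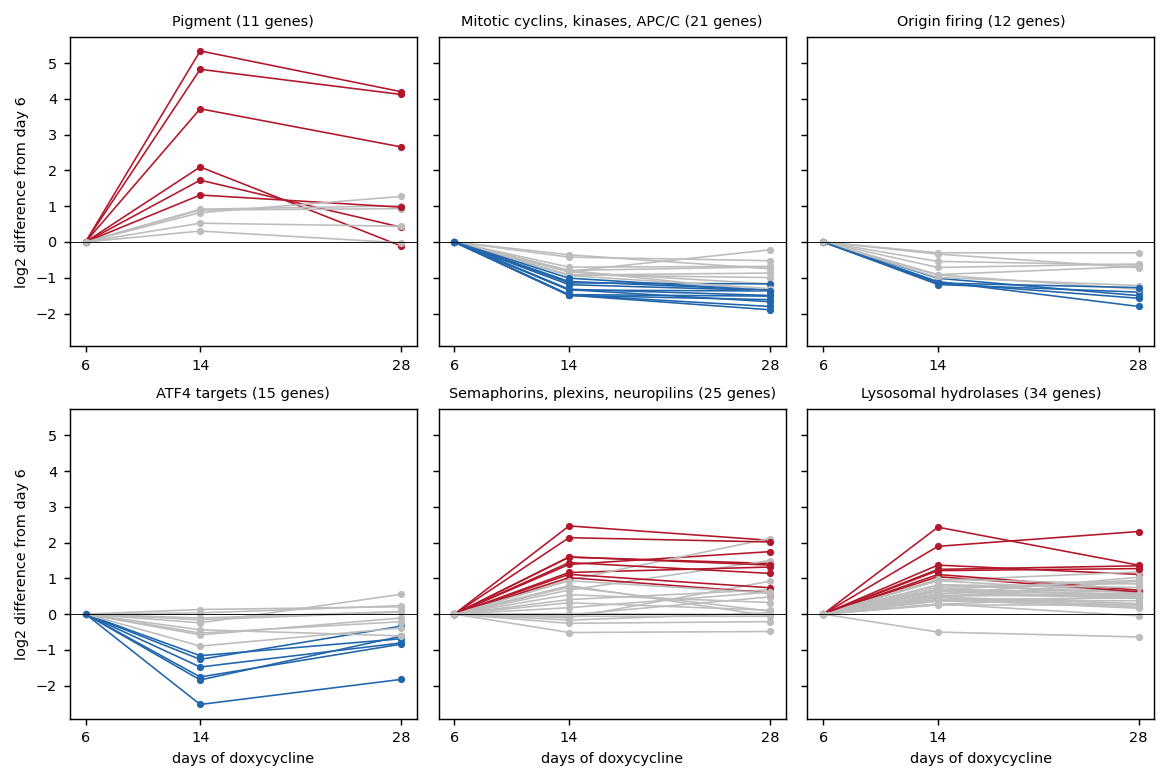
Log2 difference from day 6 (y axis) against days of doxycycline (x axis) for the members above background on both arrays of 6 groups, 1 line per gene; red lines were 2-fold higher and blue lines 2-fold lower at day 14, and both later points share the day 6 array. Mitotic and origin-firing genes lie below 0 at day 14 throughout, ATF4 targets reach -2.53 (Slc7a11) and pigment genes 5.34 (Dct).

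Lysosomal hydrolase genes were 2-fold higher in part, and most of the others lay above 0 within 2-fold. Of 34 hydrolases 33 were above 0, 7 by 2-fold and 0 below by 2-fold, with a median of 0.66. Ctsf, a cathepsin gene, read 24.12 on day 6, 26.02 on day 14 and 26.43 on day 28, 3.72-fold higher. Sgsh, the sulfamidase that degrades heparan sulfate, was 5.39-fold higher (23.67, 26.10 and 25.04) on the probe set used and differed by 0.25 on a dimmer one, and Gaa, which degrades glycogen, was 2.58-fold higher. Membrane and transport proteins had a median of 0.48 and the proton pump 0.35. Cd68, a lysosomal membrane protein gene known from macrophages, was an exception at -1.12. Autophagy genes had 0 of 23 past 2-fold, where 5.48% of all genes described were higher and 3.92% lower, and a median of 0.25. Chaperones and degradation factors of the endoplasmic reticulum lay close by, with 20 of 21 above 0, 0 by 2-fold, and a median of 0.25.

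The promoters of Ctsf and Sgsh are shown with CACGTG, the E-box that lysosomal regulators of the MITF and TFEB family and also MYC can bind, in capitals. Ctsf lies at chr19:4854915-4855214 on the plus strand and Sgsh at chr11:119355461-119355760 on the minus strand of GRCm38.p6, both from RefSeq.
Ctsf: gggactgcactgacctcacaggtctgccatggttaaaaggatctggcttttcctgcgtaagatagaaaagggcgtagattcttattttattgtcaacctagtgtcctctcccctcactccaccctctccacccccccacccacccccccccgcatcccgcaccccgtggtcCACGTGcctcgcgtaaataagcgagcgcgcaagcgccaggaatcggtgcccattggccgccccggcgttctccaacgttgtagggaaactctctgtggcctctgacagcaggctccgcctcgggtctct
Sgsh: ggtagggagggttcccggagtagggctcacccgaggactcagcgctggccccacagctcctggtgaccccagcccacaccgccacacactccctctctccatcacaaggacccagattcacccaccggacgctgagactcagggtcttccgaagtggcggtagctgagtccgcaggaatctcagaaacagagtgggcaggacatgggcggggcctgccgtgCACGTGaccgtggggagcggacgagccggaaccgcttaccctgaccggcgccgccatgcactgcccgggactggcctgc
CACGTG, which reads the same on both strands, was in 11 of 35 promoters of hydrolases (31.4%) and in 7.15% of all. Among lists that were lower, it was in 4 of 12 promoters of cytosolic tRNA synthetases (33.3%) and in 16.7% of those of ribosome biogenesis. Melanosome transport genes had it in 25.8% and the AP-1 and early genes in 22.6%, so the letters were not particular to the genes that were higher. Of the factors, Tfeb differed by 0.05 and Tfe3 by -0.45.

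In lipid metabolism, sterol synthesis had 2 of 20 genes at least 2-fold lower, Idi1 and Fdps of the isoprenoid steps (2.67-fold lower and 2.10-fold lower), and a median of -0.41. Abca1, which exports cholesterol, was 2.32-fold higher, and Cpt1a, which brings fatty acids into mitochondria, 2.08-fold higher. Glycolysis had 13 of 18 genes above the background on both arrays below 0 and a median of -0.42. The stress-linked gene Ndrg1 was 5.11-fold higher (25.36, 27.72 and 27.26). Among iron genes ceruloplasmin, Cp, was 5.11-fold higher (27.40, 29.75 and 29.58) and the metalloreductase gene Steap1 3.41-fold lower.

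Secreted immune factors differed in both directions. Of 30 chemokine and interleukin ligands described, 3 were 2-fold higher and 4 lower. None of the former and 2 of the latter were among the 23 above the background on both arrays. Of 12 cytokines and chemokines of the senescence-linked list 0 were higher and 1 lower, Csf1 at 2.30-fold lower. Over all genes described 5.48% were higher and 3.92% lower, so counts this small say little about these lists. Ccl2 differed by -0.30, Cxcl1 by 0.29 and Il1b by -0.28. Il11 was 3.05-fold lower (25.56, 23.95 and 25.91), and Il34, a further ligand of the Csf1 receptor, was above the background at day 6 only and at least 2.65-fold lower. The growth factor binding protein gene Igfbp5 was 3.09-fold higher, while another probe set read 23.45 and 23.45 on days 6 and 14. Igf2, a growth factor gene, crossed the background (21.65, 24.69 and 28.46) and was at least 3.81-fold higher.

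Antigen presentation was higher in a few members. All 6 class I chains described were above 0, with a median of 0.46, and 1 was 2-fold higher, H2-M3 at 3.60-fold higher. Probe sets other than the one used gave 1.03 to 1.45 (log2) for H2-K1 and 0.40 to 1.28 for H2-D1. Tap1, a subunit of the transporter that loads peptides, was 3.11-fold higher (24.71, 26.35 and 27.26). Its partner Tap2 crossed the background (22.35, 24.56 and 25.31) and was at least 3.48-fold higher, as did the immunoproteasome gene Psmb9, at least 2.79-fold higher. B2m, the shared light chain, differed by 0.13. Interferon targets had 2 of 38 higher and 2 lower, with Oas2 at 1.61 and Isg20 at -1.45, and a median of 0.15. Both counts are near the 5.48% and 3.92% over all genes described. Lyz2, the lysozyme gene of macrophages, was 6.09-fold higher (24.57, 27.17 and 27.31). Lyz2, Cd68, Csf1r and Adgre1 were the 4 of 10 macrophage and leukocyte markers above the background on both days, and Ptprc was at background. The summed level of that list went from 26.67 to 27.65, and the part of such cells was not tested.

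On the downward side of the leading genes stood a varied set. Siglecg, a sialic acid-binding receptor gene of B cells, read 26.62 on day 6, 22.85 on day 14 and 22.98 on day 28 and was 13.7-fold lower. Msln, the gene of the surface protein mesothelin, read 26.72 on day 6, 23.82 on day 14 and 25.86 on day 28, 7.50-fold lower. Some genes of the cornified envelope of skin were lower too. Cdsn read 25.84 on day 6, 23.54 on day 14 and 25.89 on day 28, Lce1g 24.83, 22.78 and 23.71 and Sprr1a 24.66, 22.87 and 24.35 on the same days, which were 4.90-fold lower, 4.15-fold lower and 3.46-fold lower. Msln, Cdsn and Sprr1a had day 28 values nearer to day 6 than to day 14, and Siglecg did not. Of 84 entries in that list 23 were described, with 5 lower and 0 higher, so most of it was at background. Of 6 smooth muscle genes described 3 were 2-fold lower and 1 higher. The smooth muscle gene Tagln was 3.05-fold lower (28.68, 27.07 and 26.51), Actg2 2.85-fold lower and the stretch-responsive gene Ankrd1 2.75-fold lower, while Acta2 differed by -0.50 and Mylk, the myosin light chain kinase gene, was 2.20-fold higher.

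Other leading genes belonged to none of the groups above. Upward, Islr, a secreted leucine-rich repeat protein gene, was 9.72-fold higher (24.14, 27.42 and 26.34), Smpdl3a, a lysosome-linked phosphodiesterase gene, 7.14-fold higher (24.46, 27.30 and 26.88) and Abat, which breaks down the transmitter GABA, 6.18-fold higher (23.11, 25.74 and 24.36). Wfdc18, of the whey acidic protein family, was 6.40-fold higher (27.25, 29.93 and 30.07). Each of these 4 lay above its day 6 value on the day 28 array too. Among genes that crossed the background upward, Prex2, an exchange factor for RAC, was at least 5.84-fold higher (22.27, 25.31 and 23.34), the adhesion gene Chl1 at least 4.90-fold higher (21.81, 25.06 and 25.82) and the protease inhibitor gene A2m at least 5.22-fold higher (22.53, 25.15 and 23.05). Downward, Lrp8, a receptor gene for reelin and apolipoprotein E, was 4.52-fold lower (26.52, 24.35 and 24.95), Ddah1, which breaks down methylated arginine, 3.84-fold lower (26.52, 24.58 and 25.24) and the carboxypeptidase gene Cpa4 4.72-fold lower (25.23, 22.99 and 23.38). Timm8a1, of protein import into mitochondria, was 3.50-fold lower (27.91, 26.10 and 26.27) and the nuclear body gene Sp110 3.95-fold lower (24.69, 22.71 and 23.95). Of these 5 all stayed below their day 6 value on the day 28 array.

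Inhibitors of differentiation were split. Id3 and Id4, which block helix-loop-helix factors and answer to BMP, were 2.31-fold higher and 2.74-fold higher, Id2 differed by 0.78 and Id1 by -0.59. Smad6, an inhibitor of BMP signalling, was 2.31-fold higher and the BMP antagonist gene Grem1 2.42-fold lower. Receptor tyrosine kinases had 3 of 21 higher and 1 lower, beside 5.48% and 3.92% of all genes described, so counts this small say little about them. Erbb3 and Fgfr1 (2.43-fold higher) were among the former, and the collagen receptor gene Ddr2 (2.84-fold lower) was the latter. A further receptor gene, Insr of the insulin receptor, was 2.02-fold higher on the probe set used and differed by -0.47 on another.

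Along the chromosomes the medians lay close together. Over 20 chromosomes they ran from -0.10 on chromosomes 3 and 7 to 0.12 on chromosome 18, for genes read above the background on each array. In windows of 41 neighbouring genes the lowest median was -0.40, between Serp2 and Cldn10 on chromosome 14, and the highest 0.44, from Mfsd11 to Oxld1 and 2 overlapping windows on chromosome 11, against a median window of -0.04 over 10069 windows. No chromosome and no window of this size had a median difference near 2-fold.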

How the data were processed

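RNA of 3 samples, 1 per time point, was made into biotinylated cRNA by the Affymetrix protocol and measured on arrays, per the labels' protocols. The deposited values are taken to be log2 signals, 1 for each of 45101 probe sets with 64 controls among them. The log base, any added constant and the way probe sets were summarized are not given in the sources used here. Values had a minimum of 1.46, a median of 22.9 and a maximum of 30.6, so the authors' log2 values seem to hold an added constant, which is assumed to cancel between arrays, and every fold assumes base 2. The sorted columns were identical, as quantile normalization leaves them. The number of arrays limits the precision, and with 1 per day no test was made.

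GEO's platform annotation gave a single gene for 34958 probe sets and several for 932, and did not list 9211. Names, gene order and promoters came from RefSeq tables of GRCm38.p6. Each gene was read from its brightest probe set, by the mean of the 3 arrays. Of 2808 list entries 2680 matched a gene on the array. Medians of lists in the text cover members above the background on both days, while the alternatives start from medians over all members described.

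The members, lists, silent genes and alternatives were chosen with earlier results of these data known. The genes named were the 25 most and 25 least different of those above background on both days, the 12 at each end by bounds, up to 5 per role and direction past 2-fold, key genes, and members described by role whatever their values, with probe sets that disagree. Not all genes that this rule allows are named. Python 3.11.15, numpy 2.4.6, pandas 2.3.3 and matplotlib 3.10.9 were used, and the calculations were checked on simulated data. That check changed bright genes only, by more than 2-fold and with noise below the SD between probe sets, so it does not cover calls of dim genes. Alternatives covered scaling, choice of probe set, background, dim values and the fold that counts.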

Additional observations from a re-analysis of the deposited data

How the results depend on the processing

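With 1 array per day, no alternative carries a replicate check. No paired analysis was possible because each day has 1 array and the differences come from no test. The 644 genes higher and 461 lower became 1581 and 1683 at 1.5-fold and 251 and 60 at 3-fold. With the background at the 99th percentile of the silent probe sets, 243 genes were lower, where 7928 genes were described. Under that background 453 genes were higher. Under the other settings the counts ran from 478 to 691 higher and from 365 to 626 lower. The difference of Lox turned from -2.32 to 0.11 with the probe set brightest on days 6 and 14, which is another probe set. List medians are taken here over all members described, where the text prints those above the background on both days. So taken, the median of the IGF binding proteins and regulators turned from -0.37 to 0.26 with the 99th percentile background, and the cause was not tested. A turn was counted only for medians that stood away from 0. Other medians nearer to 0 changed sign too, under this and other settings. With this background the whole IGF axis went from -0.07 to 0.76. The BMP ligands, receptors and antagonists went from -0.02 to 0.65. Differences of named genes moved by less than the SD between probe sets, 0.35, in 1986 comparisons with the alternatives and by more in 65, without the reversal. List medians did so in 1402 and 28. A named gene's difference cannot move with the background settings, and the scalings shift all genes alike by less than that SD. With the mean over probe sets 41 named genes moved by more and 187 did not. With dim values raised to the background it was 18 and 226, and without shared probe sets 5 and 197. The alternative with another list of silent genes was not run, since that list served as the main one. Signal over background limits the dim genes, for which only bounds are given.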
